A study of Mus musculus with 10 samples.

Results

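The genes described here are 10 cardiac transcription factor genes, *Gata4*, *Gata5*, *Gata6*, *Nkx2-5*, *Tbx5*, *Tbx20*, *Hand1*, *Hand2*, *Isl1* and *Mef2c*, of 22359 protein-coding genes. They were chosen by name. Their peaks are those within 2500 bp of any transcription start site (TSS) of a protein-coding transcript, or over the gene body, in lists of H2AK119ub, H3K27me3, H3K27ac and H3K4me3. The lists come from ChIP-Rx, which is ChIP-seq with *Drosophila* S2 cells mixed in as a constant reference, on mCherry+ mesoderm cells sorted from day 4 embryoid bodies (EBs), aggregates of differentiating mouse embryonic stem (ES) cells. In WT cells (*Scl:mCherry*, made from J1 ES cells) SCL is functional and mCherry marks one allele of *Scl*. In Delta cells (Scl d/d, engineered from the *Scl:mCherry* line) both alleles lack the basic helix-loop-helix (bHLH) domain of SCL, and the sort again took cells in which the *Scl* locus was active. Each line was grown from single sorted cells, and the strain is labelled as a C57Bl/6 and Sv129 cross. Each mark was measured in 1 library per genotype, so values have no replicate check, no test was possible, and every difference is one between libraries.

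SCL, also called TAL1, is the bHLH factor that blood specification requires, and in mesoderm blood and heart arise from closely related progenitors. The 10 genes encode factors that set up and maintain the heart programme. *Gata4*, *Gata5* and *Gata6* encode zinc finger factors that bind GATA motifs. *Nkx2-5* encodes a homeodomain factor of early heart progenitors, *Tbx5* and *Tbx20* encode T-box factors, and *Hand1* and *Hand2* encode bHLH factors named for heart and neural crest derivatives. *Isl1* encodes a LIM-homeodomain factor of the second heart field, and *Mef2c* a MADS-box factor that also acts in muscle and endothelium. H3K27me3 is placed by Polycomb repressive complex PRC2 and H2AK119ub by PRC1, and both marks are associated with repression. In the study, with signal scaled to the *Drosophila* reference, both marks were lower in Delta than in WT cells at TSSs genome-wide. Western blots also showed lower levels. H3K27me3 was higher at TSSs of genes that SCL represses than at those it activates. The H2AK119ub level did not differ between these groups, and in both it depended on SCL. The peak lists used here are not scaled to the reference. H3K4me3 marks promoters, and together with H3K27me3 it makes a promoter bivalent, a state typical of silent developmental regulators. H3K27ac marks active promoters and enhancers.

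The 8 lists held between 2388 peaks (H2AK119ub in Delta) and 16038 peaks (H3K4me3 in WT). H2AK119ub had 4922 peaks in WT, so its lists differed most in size. The lists do not give the depth of the libraries, and a region without a peak is one below the limit of the authors' peak caller. Fold enrichment, the authors' ratio of ChIP over background, is used here only as a fold rank, the percentage of peaks of the same list with a lower value. Of 7 mesoderm and haemangioblast markers, 7 had H3K4me3 at the TSS in each genotype (60.7% of all genes in WT and 60.3% in Delta). H3K27me3 was called at 6 in WT (34.8% of all genes) and 5 in Delta (32.7%). H3K27ac was called at 1 in each but not the same one, *Tal1* in WT (19.9% of all genes) and *Mixl1* in Delta (22.8%). H3K4me3 was also called at 2 of 2 neural (a further one was not matched by symbol), 2 of 3 endoderm and 3 (WT) or 4 (Delta) of 5 pluripotency markers, so these counts do not by themselves mark the cells as mesoderm. *Myh6*, *Tnnt2*, *Nppa* and *Actc1*, which mark differentiated cardiomyocytes, had no peak of any of the 4 marks at the TSS.

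The promoters of 4 of the genes are shown because they carry the contrast that follows. At *Hand1* and *Tbx20* these bases lay under H3K27me3 in WT and between H3K27me3 peaks in Delta, whereas at *Hand2* and *Nkx2-5* they lay under H3K27me3 in both genotypes. Each run is the 250 bases before the outermost TSS in NCBIM37 (mm9), read 5′ to 3′ on the gene's own strand. *Hand1* is on the minus strand (chr11:57646321-57646570), *Tbx20* on the minus strand (chr9:24578747-24578996), *Hand2* on the plus strand (chr8:59799530-59799779) and *Nkx2-5* on the minus strand (chr17:26978511-26978760). Capitals mark E-boxes (CANNTG), the motif class that bHLH factors bind, and GATA motifs (GATAA or its reverse complement TTATC).
Hand1: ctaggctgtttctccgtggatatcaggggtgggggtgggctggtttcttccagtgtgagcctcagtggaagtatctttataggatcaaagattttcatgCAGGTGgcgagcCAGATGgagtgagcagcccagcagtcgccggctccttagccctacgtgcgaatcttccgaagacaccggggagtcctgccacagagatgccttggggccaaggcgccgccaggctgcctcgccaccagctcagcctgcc
Tbx20: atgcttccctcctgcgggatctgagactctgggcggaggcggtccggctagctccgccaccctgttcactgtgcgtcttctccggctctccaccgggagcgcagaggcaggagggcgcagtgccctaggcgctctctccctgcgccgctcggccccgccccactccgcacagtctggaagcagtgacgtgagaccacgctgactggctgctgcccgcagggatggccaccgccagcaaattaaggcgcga
Hand2: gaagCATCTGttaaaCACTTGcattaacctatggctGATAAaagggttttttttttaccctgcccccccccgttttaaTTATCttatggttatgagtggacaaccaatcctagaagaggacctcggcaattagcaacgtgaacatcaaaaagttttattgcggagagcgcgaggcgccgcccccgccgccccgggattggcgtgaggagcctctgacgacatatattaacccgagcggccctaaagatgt
Nkx2-5: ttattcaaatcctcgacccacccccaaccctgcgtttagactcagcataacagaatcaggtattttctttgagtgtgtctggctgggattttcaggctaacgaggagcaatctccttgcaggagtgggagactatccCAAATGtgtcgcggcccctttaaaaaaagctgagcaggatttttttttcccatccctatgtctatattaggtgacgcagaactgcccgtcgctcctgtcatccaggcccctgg

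In the *Hand1* promoter the E-boxes began at -151 and -139 from the TSS. *Hand2* held E-boxes at -246 and -235 and GATA motifs at -214 and -172, and *Nkx2-5* held an E-box at -113. The *Tbx20* window held neither motif. Over the outermost promoters of all 10 genes an E-box was found in 6 and a GATA motif in 3, against 63.3% and 21.4% of the promoters of all protein-coding genes, with no overlap between the motifs in the 4 shown. CpG content varied among the 10 genes. The observed over expected CpG ratio was 0.49 at *Hand1*, 0.76 at *Tbx20*, 0.99 at *Hand2* and 0.53 at *Nkx2-5*, and it was at least 0.6 in 4 of the 10 genes and in 42.5% of all promoters. A match is a description of the letters and not a site of binding.

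To ask which marks lay at the promoters of the cardiac genes, peaks at the TSS were counted. All 10 genes had a peak of H3K4me3 and one of H3K27me3 at a TSS in both genotypes. With the outermost TSS alone this held at 9 in each genotype. Whether both marks lay in the same cells was not tested. H3K4me3 was called at 10 of 10 in WT (60.7% of all genes) and in Delta (60.3%), H3K27me3 at 10 of 10 in WT (34.8%) and in Delta (32.7%), and both together at 10 of 10 in WT (32.4%) and in Delta (30.1%). In WT, H2AK119ub had a peak at 9 genes (9.21% of all genes), *Mef2c* being the exception. In Delta it was called at 5 (5.0% of all genes), *Tbx5*, *Hand2*, *Gata4*, *Nkx2-5* and *Gata6*. H3K4me3, H3K27me3 and H2AK119ub therefore coincided at 9 genes in WT (7.65%) and at 5 in Delta (4.50%). The H2AK119ub peaks at these TSSs were weak, their −log10 q ranging from 1.57 to 2.80. A limit of 3 on the −log10 q removed all of them, so the coincidence of the marks rested on weak peaks. By fold rank, the highest H2AK119ub peak at the TSS ranged in WT from 10.4% at *Gata6* to 98.5% at *Gata5*. The peak at *Gata5* had the −log10 q of 2.80, so a high fold rank did not bring a peak past the limit. How much of the whole H2AK119ub list the limit removes was not counted. When the TSS distance was cut to 1000 bp, 5 genes kept H2AK119ub for WT and 4 for Delta.

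H3K27ac was called at none of the 10 genes in WT, where 19.9% of all genes had it. In Delta it was called at *Hand1*, *Tbx20* and *Gata6*, 3 of 10, where 22.8% of all genes had it. H3K27ac in Delta and not in WT was found at 3 of the 10 genes and at 6.37% of all genes, and the reverse at 0 of the 10 and at 3.43% of all genes. The acetylation peaks were weak. Their −log10 q was 2.51 at *Hand1*, 3.36 at *Tbx20* and 2.54 at *Gata6*, and with a −log10 q of at least 3 only that at *Tbx20* was left. All 3 stayed when equal numbers of top peaks were taken from each list, and at a TSS distance of 1000 bp that at *Gata6* was out of reach. In WT the nearest H3K27ac peak was 176159 bp from the outermost TSS of *Hand1*, 376919 bp from that of *Tbx20* and 325971 bp from that of *Gata6*.

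**Figure D1:**
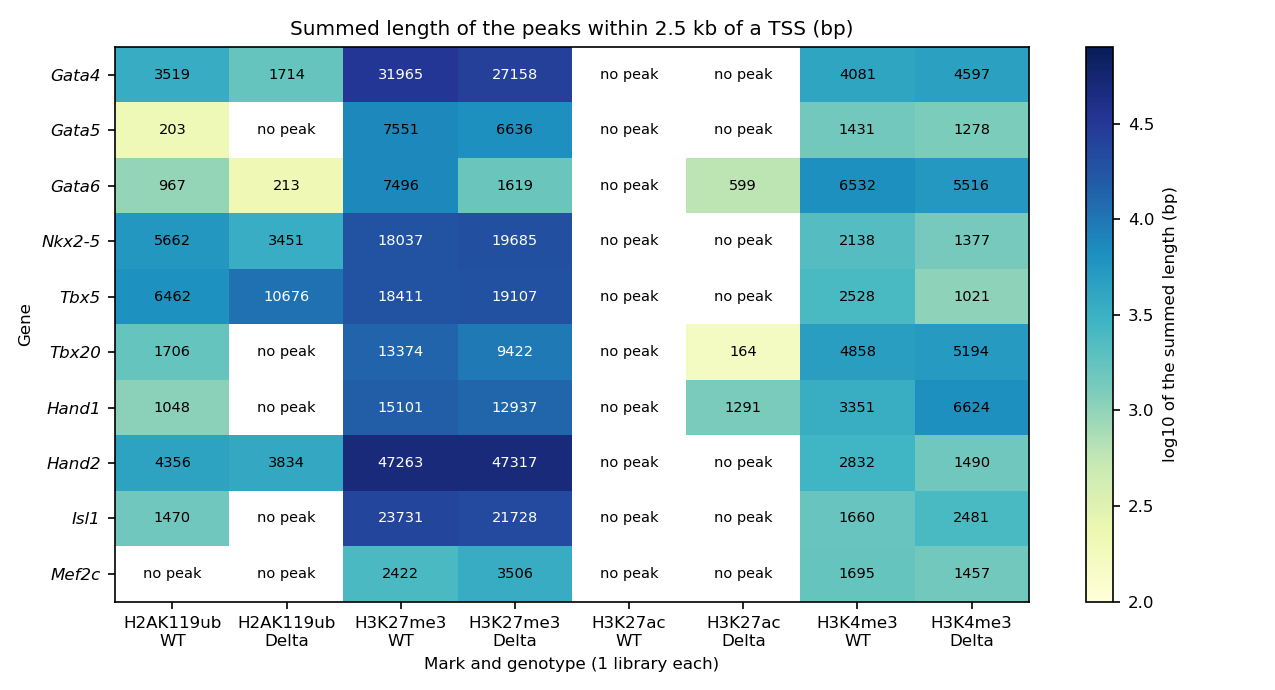
Summed length in bp of the peaks within 2.5 kb of a TSS for each gene (rows) in each of the 8 libraries (columns, mark and genotype), with colour on a log10 scale. H3K27me3 and H3K4me3 fill every row, from 1619 to 47317 bp and from 1021 to 6624 bp, while H3K27ac appears only in the Delta column of *Gata6*, *Tbx20* and *Hand1*.

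*Hand1* had the largest H3K4me3 rank difference of the 10 genes. The gene (ENSMUSG00000037335.7, minus strand of chromosome 11, 57642207 to 57646320) has TSSs at 0 and 671 bp, counted from the outermost. In WT a single H3K27me3 peak of 15101 bp covered it from -7166 to 7934 bp. In Delta this domain was split into peaks of 6112 bp, ending at -421 bp, and 6825 bp, starting at 836 bp. Both TSSs lay in the gap of 1256 bp between them.

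The H3K4me3 peaks at *Hand1* measured 295 bp, over the outermost TSS, and 3056 bp, from 873 to 3928 bp, in WT. In Delta a single H3K4me3 peak of 6624 bp ran from -1474 to 5149 bp, and the summed length was 1.98 times that in WT. An H3K27ac peak of 1291 bp ran from -960 to 330 bp in Delta, across the outermost TSS and inside the H3K4me3 peak. Its upstream part overlapped the H3K27me3 peak that ended at -421 bp. H2AK119ub, called in WT from -1288 to -241 bp and again from 3642 to 4588 bp, across the end of the gene, had no peak at *Hand1* in Delta. The fold rank of H3K27me3 went from 84.1% to 64.1% and that of H3K4me3 from 29.3% to 78.0%. This H3K4me3 difference of 48.7 points was larger than that of 99.8% of the 13324 genes with H3K4me3 in both genotypes.

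*Tbx20* showed the same split with less change in H3K4me3. The gene (ENSMUSG00000031965.7, minus strand of chromosome 9, 24527648 to 24578746) had 1 TSS and in WT an H3K27me3 peak of 13374 bp, from -7629 to 5744 bp. In Delta there were H3K27me3 peaks of 4872 bp, ending at -1338 bp, and of 4550 bp, starting at 236 bp. The gap of 1573 bp held the TSS. The H3K27me3 fold rank went from 80.5% to 41.4%, and a difference further in that direction was seen at 4.52% of the 6216 genes with H3K27me3 in both genotypes.

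H3K4me3 at *Tbx20* measured 4858 bp (WT) and 5194 bp (Delta), and its fold rank was 36.4% and 60.0%. The H3K27ac peak in Delta was only 164 bp long and lay from 264 to 427 bp, with its midpoint in the UTR. It lay outside the gap, wholly inside the H3K27me3 peak that started at 236 bp. An H2AK119ub peak of 1706 bp in WT, from -3811 to -2106 bp, had no counterpart in Delta.

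*Gata6* differed in H3K27me3 length rather than continuity. The gene (ENSMUSG00000005836.8, plus strand of chromosome 18, 11052508 to 11085633) had H3K27me3 on either side of its TSS in both genotypes. The upstream H3K27me3 peak measured 5456 bp (WT) and 606 bp (Delta), and the downstream one 2040 bp and 1013 bp. The summed H3K27me3 length was therefore 4.63 times longer in WT. With peaks up to 3000 bp apart joined it was 9308 bp (WT) and 7963 bp (Delta), and the difference was no longer 1.5 times. As listed, the gap between H3K27me3 peaks at the TSS measured 1812 and 2917 bp in WT and Delta.

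The *Gata6* TSS lay inside H3K4me3 peaks of 6532 bp (WT) and 5516 bp (Delta). Their fold rank was 42.6% and 61.2%, while that of H3K27me3 was 69.0% and 50.7%. H3K27ac in Delta covered 599 bp, from 1629 to 2227 bp, with its midpoint in a coding exon, and overlapped the H3K27me3 peak that ran from 1597 to 2609 bp. Over the same exon H2AK119ub measured 967 bp in WT and 213 bp in Delta.

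**Figure D2:**
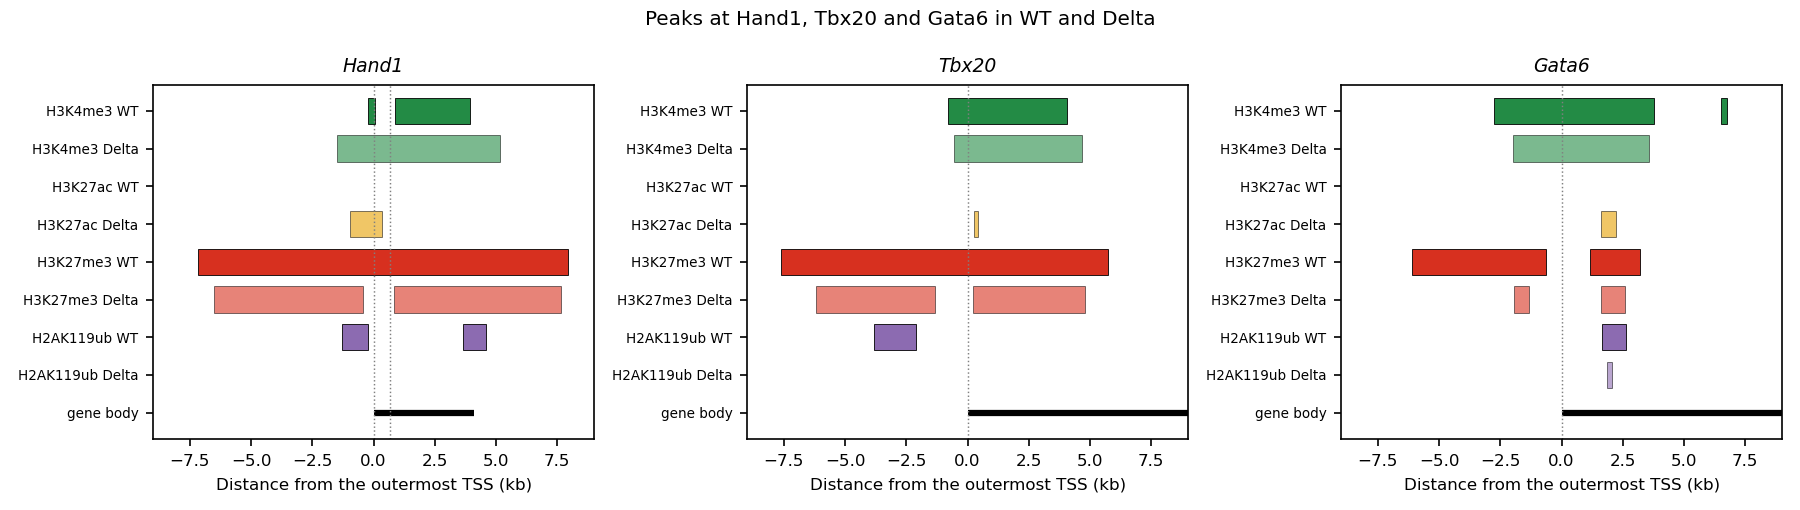
Peaks of each mark in WT (full colour) and Delta (pale) at *Hand1*, *Tbx20* and *Gata6*, by distance in kb from the outermost TSS with transcription to the right. Dotted lines are TSSs and the black bar is the gene body, cut at the edge of the panel for *Tbx20* and *Gata6*. In Delta the H3K27me3 bars leave gaps of 1256, 1573 and 2917 bp around the TSS. The H3K27ac bars overlap an H3K27me3 bar in each panel, in full at *Tbx20* and *Gata6*.

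To place these 3 genes among all genes, the position of the TSS relative to H3K27me3 was counted; this measure and the fold rank differences were chosen after the values were seen. The outermost TSS lay inside H3K27me3 in WT at 8 of the 10 genes and at 3870 of all 22359 genes. In Delta it lay outside at 2 of the 8, *Hand1* and *Tbx20*, against 20.0% of the 3870. The reverse was found at 0 of the 6 genes inside in Delta, against 15.9% of the 3678 genes inside there. The share of 2 of 8 was thus near the background. When peaks up to 3000 bp apart were joined, both gaps closed and the count was 0.

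H3K27me3 and H3K4me3 were both present in both genotypes at 5627 genes. A lower H3K27me3 rank together with a higher H3K4me3 rank in Delta was found at 1167 of them (20.7%), and among the cardiac genes at *Gata5*, *Gata6*, *Tbx20* and *Hand1*. Adding H3K27ac in Delta alone left 88 of the 5627 genes (1.56%), which included *Gata6*, *Tbx20* and *Hand1*. Without the conditions on rank, H3K27ac in Delta alone was found at 343 of the 5627 (6.10%), among them the same 3. These 3 had already shown each feature of the combination, so their place among the 88 is no further result. The ranks were set within lists that carry no spike-in scaling, so they give the order of peaks and not the level of a mark.

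Across the 10 genes the H3K27me3 rank was lower in Delta at 9 and higher at *Gata4*, by 0.5 points. The median difference was -3.7 points, against -0.7 points over the 6216 genes. A lower rank was thus also the more common direction over all genes, whose share was not counted. The lower and upper quartiles over the 6216 genes were -8.9 and 5.8 points. At 5 of the 9 the difference was under 4 points. The H3K4me3 rank was higher in Delta at *Hand1*, *Tbx20*, *Gata6* and *Gata5* and lower at 6. *Hand2* went from 58.9% to 36.8%, *Isl1* from 73.2% to 50.3%, *Mef2c* from 43.0% to 21.1% and *Nkx2-5* from 22.5% to 7.4%. The median H3K4me3 difference was -1.8 points for the cardiac genes and -1.6 points over 13324 genes, so the genes lay on both sides of the common value. Ranked by −log10 p in place of fold enrichment, H3K4me3 was higher in Delta at 6 genes and lower at 4, since *Gata4* (3.4 points) and *Tbx5* (4.0 points) were then higher. *Hand1* (52.1 points), *Tbx20* (29.0 points) and *Gata6* (20.4 points) kept their direction on that scale.

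**Figure D3:**
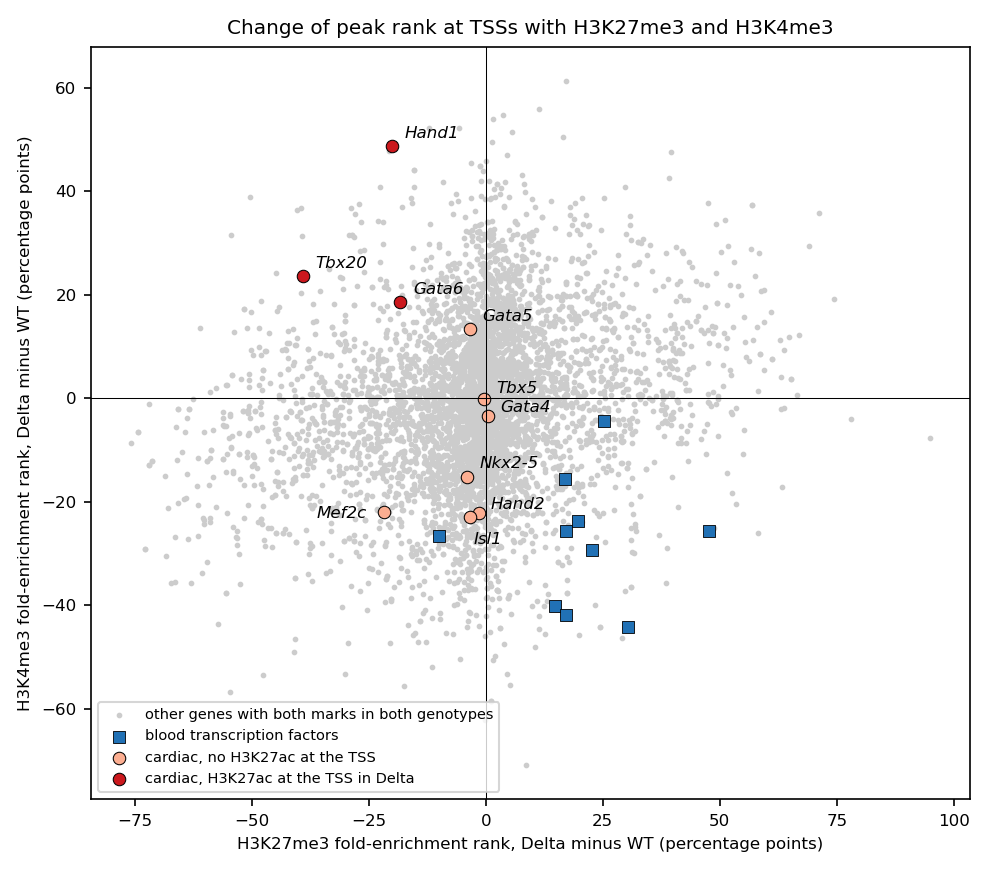
Difference in fold rank, Delta minus WT in percentage points, of H3K27me3 (x axis) and H3K4me3 (y axis) at the 5627 genes with both marks in both genotypes (grey points), with the 10 cardiac genes (circles) and the blood transcription factors (squares). *Hand1*, *Tbx20* and *Gata6* (dark circles, H3K27ac at the TSS in Delta) lie at upper left, at 48.7, 23.6 and 18.6 points on the y axis.

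At *Hand2*, *Nkx2-5*, *Tbx5*, *Isl1* and *Gata5* the H3K27me3 domain was kept across the TSS, although the lists and ranks of other marks differed. *Hand2* (ENSMUSG00000038193.3, plus strand of chromosome 8, 59799780 to 59803314), the paralogue of *Hand1*, had the longest H3K27me3 peak of the 10 genes. It measured 47263 and 47317 bp in WT and Delta, from -12826 to 34436 bp and from -12814 to 34502 bp, and also covered *5033428I22Rik*. The H3K4me3 peaks of *Hand2* added up to 2832 bp (WT) and 1490 bp (Delta), 1.90 times longer in WT. Its H2AK119ub measured 4356 bp and 3834 bp, in 2 peaks beside the TSS in each genotype.

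*Nkx2-5* (ENSMUSG00000015579.4, minus strand of chromosome 17, 26975609 to 26978510) lay wholly inside H3K27me3 peaks of 18037 bp (WT) and 19685 bp (Delta). Its H3K4me3 began inside the gene, at 257 bp (WT) and 123 bp (Delta), and added up to 2138 bp and 1377 bp, 1.55 times longer in WT. H2AK119ub covered the TSS in WT in a peak of 5411 bp from -1047 to 4363 bp. In Delta its peaks measured 2056 and 1395 bp, on either side of the TSS.

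*Tbx5* (ENSMUSG00000018263.8, plus strand of chromosome 5, 120284672 to 120335227) had the H3K27me3 peaks of highest rank among the 10 genes, 99.0% in WT and 98.6% in Delta. They measured 18411 and 19107 bp at the TSS. Over the gene body further H3K27me3 peaks were listed, 1 in WT and 4 in Delta, so that the whole gene held 20625 bp (WT) and 25764 bp (Delta). The H3K4me3 peaks at the *Tbx5* TSS added up to 2528 bp (WT) and 1021 bp (Delta), 2.48 times longer in WT, and none covered the TSS itself. *Tbx5* was also the only one of the genes with longer H2AK119ub at the TSS in Delta, 10676 bp against 6462 bp. In WT there were 3 further H2AK119ub peaks downstream, and with peaks up to 3000 bp apart joined the lengths were 12263 bp (WT) and 10676 bp (Delta), in the other direction.

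*Isl1* (ENSMUSG00000042258.5, minus strand of chromosome 13, 117088478 to 117099896) had an H3K27me3 peak of 23731 bp (WT) and 21728 bp (Delta), which ran past both ends of the gene. H3K4me3 at its TSS measured 1660 bp (WT) and 2481 bp (Delta), although its rank was lower in Delta. *Gata5* (ENSMUSG00000015627.4, minus strand of chromosome 2, 180059838 to 180069404) had 7551 and 6636 bp of H3K27me3 at the TSS and 1431 and 1278 bp of H3K4me3. The *Gata5* H3K4me3 rank was 19.4% in WT and 32.7% in Delta. This locus overlaps *Gm14318*, so its peaks cannot be given to one gene alone.

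*Gata4* and *Mef2c* have start sites far apart, and in both genes the highest H3K4me3 peak lay at an inner start. *Gata4* (ENSMUSG00000021944.8, minus strand of chromosome 14, 63817759 to 63890529) has 6 TSSs, of which 3 are clustered between 26421 and 26444 bp from the outermost. The highest H3K4me3 peak of *Gata4* lay over this cluster, with 2836 bp (WT) and 2947 bp (Delta) and fold ranks of 50.0% and 46.6%. In WT an H3K27me3 peak of 31965 bp covered both the outermost TSS and the cluster. In Delta the H3K27me3 peaks measured 24976 bp, ending at 22985 bp, and 2182 bp, starting at 26676 bp, so that the cluster lay just outside both.

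The promoters of this *Gata4* cluster were richer in CpG than its outermost one, with observed over expected ratios of 0.83 to 0.90 against 0.43. H2AK119ub peaks of 1030 and 457 bp on either side of the cluster in WT had no counterpart in Delta. WT peaks of 2032 bp, from 490 to 2521 bp, and of 5537 bp, from 16321 to 21857 bp, did have counterparts in Delta. In Delta H2AK119ub peaks without a counterpart in WT were also listed, the longest of 4272 bp, from 3389 to 7660 bp. The outermost TSS of *Gata4*, outside H2AK119ub in WT, was inside a Delta peak of 1319 bp.

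*Mef2c* (ENSMUSG00000005583.8, plus strand of chromosome 13, 83643033 to 83806684) had no peak at its outermost TSS. At its second TSS, 20943 bp downstream, the CpG ratio was 1.94 against 0.15 at the outermost. There H3K4me3 measured 1695 bp (WT) and 1457 bp (Delta). The H3K27me3 peaks were short and weak, 1310 and 1112 bp on either side of this TSS in WT and a single peak of 3506 bp across it in Delta, with ranks of 48.0% and 26.2%. *Mef2c* thus had the least H3K27me3 of the 10 genes in WT, and it was the one without H2AK119ub there.

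**Figure D4:**
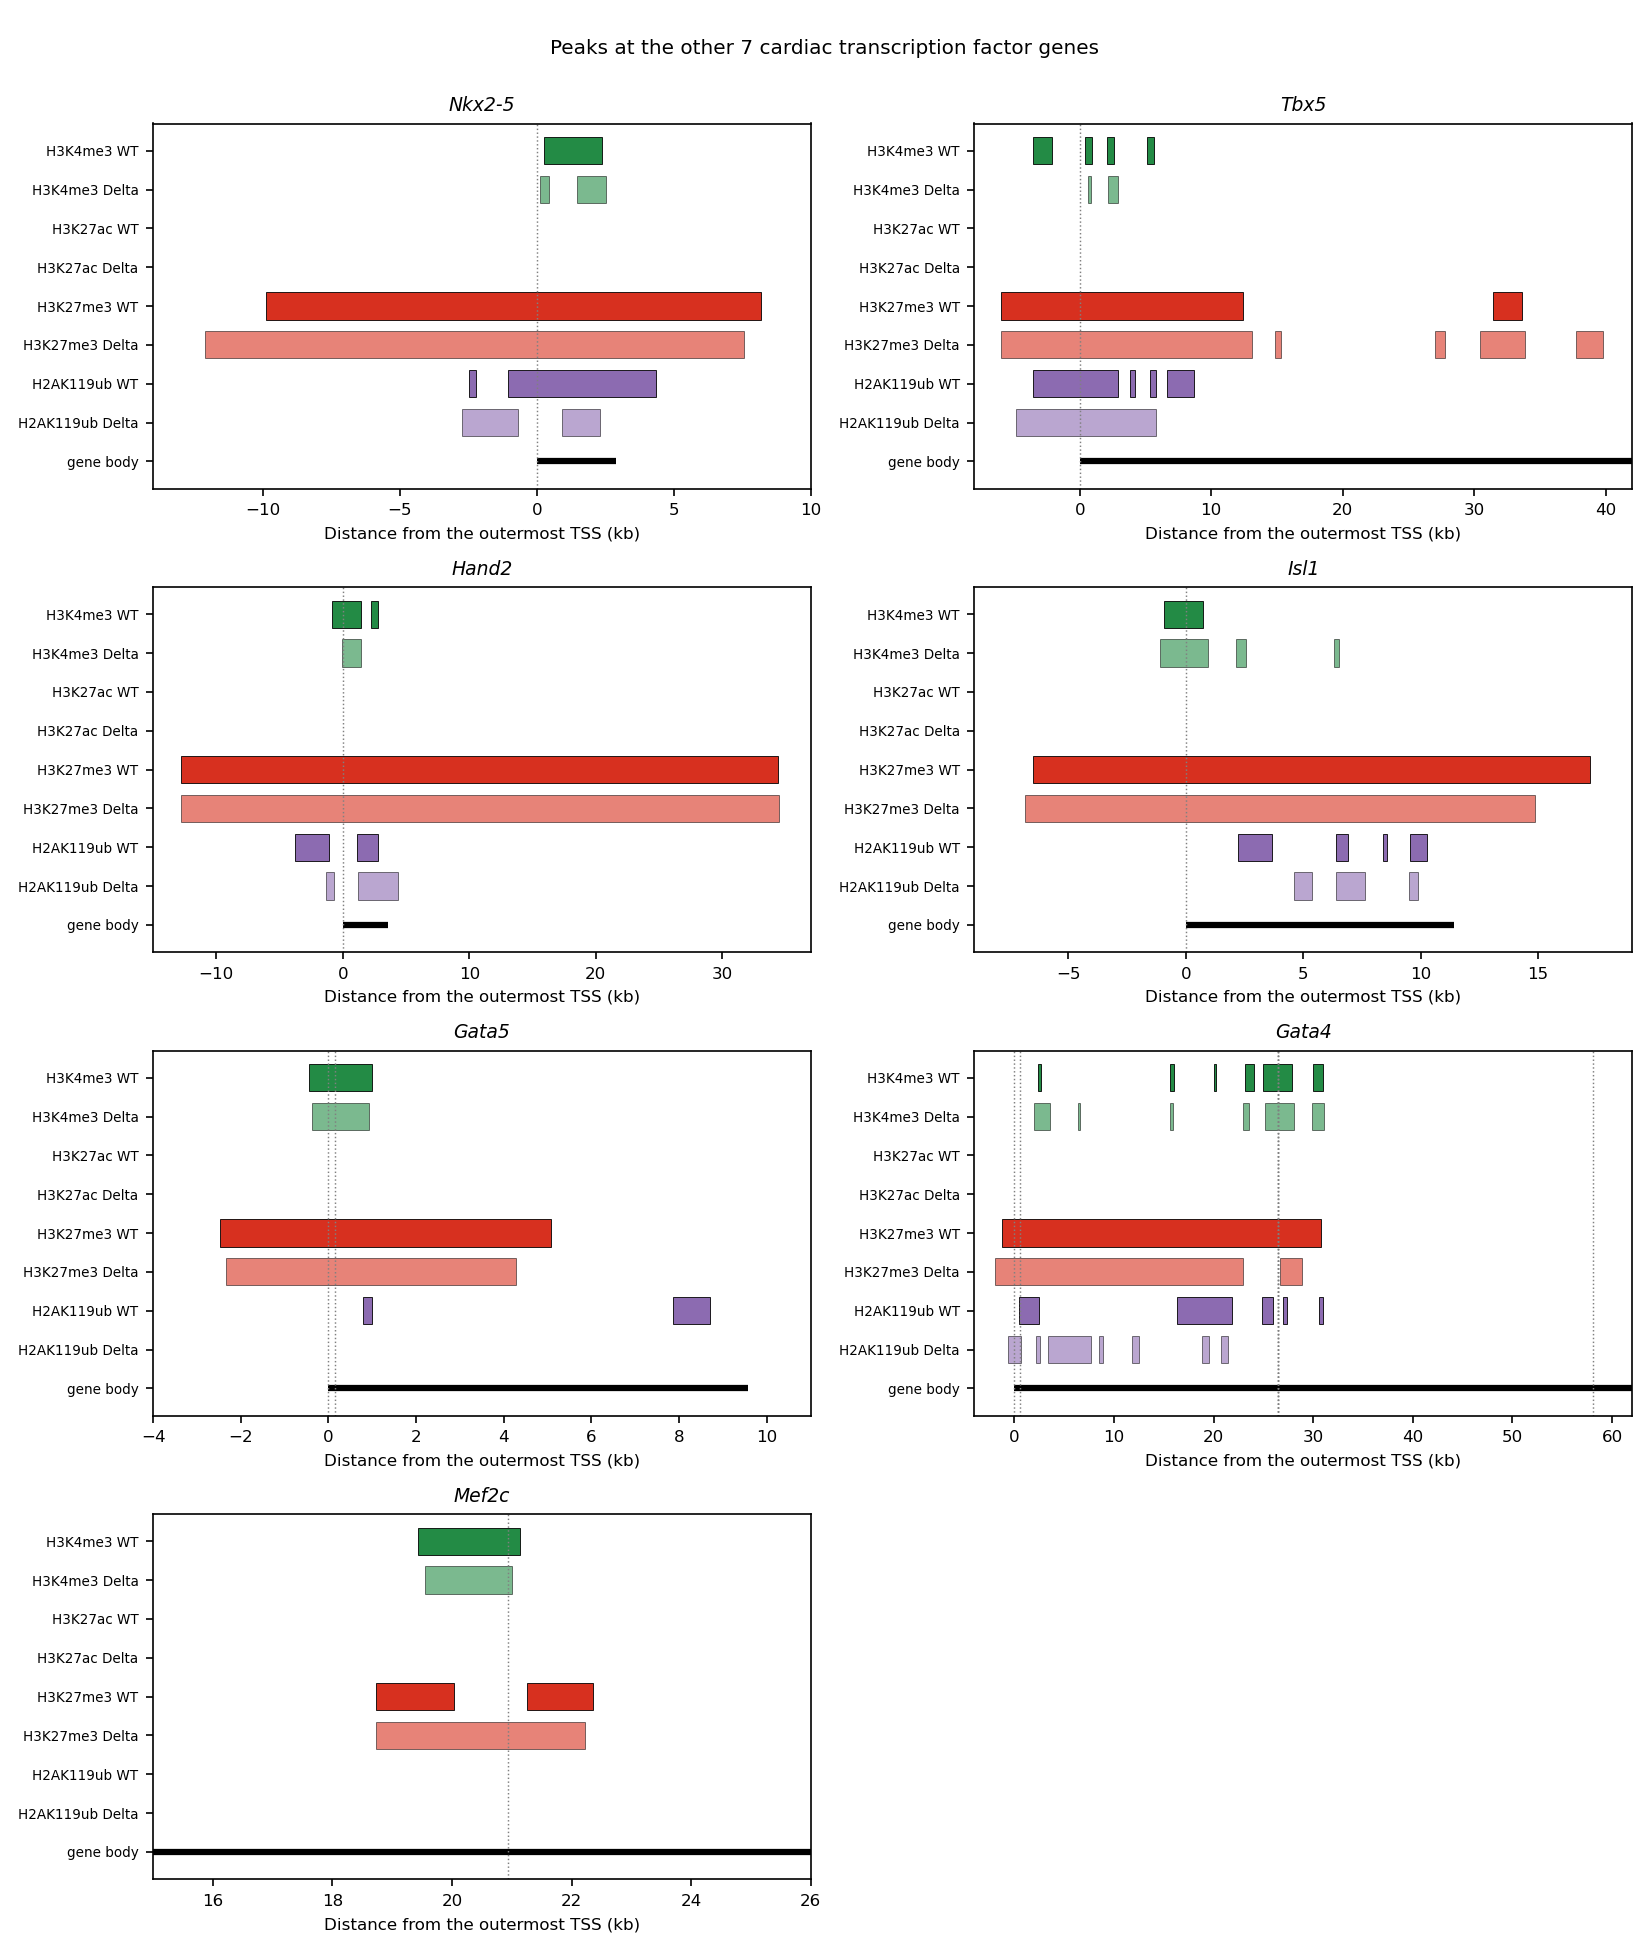
Peaks of each mark in WT (full colour) and Delta (pale) at *Nkx2-5*, *Tbx5*, *Hand2*, *Isl1*, *Gata5*, *Gata4* and *Mef2c*, by distance in kb from the outermost TSS with transcription to the right. Dotted lines are TSSs and the black bar is the gene body, cut at the panel edge for *Tbx5*, *Gata4* and *Mef2c*. H3K27me3 bars cover the outermost TSS in both genotypes in every panel except that of *Mef2c*, whose marks sit at 20943 bp.

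Lengths were then compared by a rule of size, a summed TSS peak length at least 1.5 times longer in one genotype, which is no test. For H3K27me3 this held at 1 of 10 genes in the direction of WT, *Gata6* (28.0% of all genes with the mark in either genotype), and at 0 in the direction of Delta (21.8%). With peaks up to 3000 bp apart joined it held at *Gata5* (9989 and 6636 bp) in place of *Gata6*. For H3K4me3 it held at 3 of 10 in the direction of WT, *Tbx5*, *Hand2* and *Nkx2-5* (11.3%), and at *Hand1* in the direction of Delta (4.02%). For H3K27ac it held at 3 of 3 in the direction of Delta (39.0%) and at 0 in that of WT (25.1%). These 3 counted because WT had no peak. Summed over all peaks of the 10 genes, H3K27me3 covered 187565 bp (WT) and 175772 bp (Delta), and H3K4me3 33581 and 33528 bp.

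H2AK119ub was longer in WT at 7 of the 9 genes that had it, all but *Hand2* and *Tbx5* (69.0% of all genes with it in either genotype). It was longer in Delta at *Tbx5* (16.8%), and with peaks joined at *Gata4* (4528 and 13118 bp) instead. Of the 9 genes with H2AK119ub in WT, 5 had it in Delta, against 44.9% of all genes with it in WT. These shares were near those of all genes, and the Delta list was the shorter one. When only as many top WT peaks were taken as the Delta list held, 5 genes had H2AK119ub in WT and 5 had it in Delta. Those lost from WT were *Gata6*, *Tbx20*, *Hand1* and *Isl1*.

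Within the cardiac loci, H2AK119ub was nested in H3K27me3. Of the 37446 bp of H2AK119ub at these genes in WT, 97.1% lay inside H3K27me3 peaks, and of the 29130 bp in Delta 100%. The largest part outside was at *Gata5* in WT, with only 19.7% inside, since a peak of 827 bp, from 7871 to 8697 bp, lay past the end of H3K27me3. The share of bases was not computed for all genes. Of the 2060 genes with H2AK119ub at the TSS in WT, 1710 also had H3K27me3 and H3K4me3 there. In Delta it was 1006 of 1118. For H3K4me3 the share of bases inside H3K27me3 at the cardiac genes was 88.1% in WT and 72.6% in Delta. It went from 100% to 81.0% at *Hand1* and from 100% to 85.1% at *Tbx20*. Those bases outside lay in gaps between H3K27me3 peaks that closed when peaks up to 3000 bp apart were joined. At *Gata6* the share went from 61.1% to 29.4% and at *Gata4* from 95.6% to 52.6%. At *Mef2c* the share went the other way, from 35.0% to 100%, and at the other five genes it was 100% in both.

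No H3K27ac was listed near the other 7 genes in either genotype. The distance from the outermost TSS to the nearest H3K27ac peak was smallest at *Gata5*, 61458 bp (WT) and 61343 bp (Delta). At *Gata4* it was 63815 bp upstream in WT and 93128 bp downstream in Delta. It was largest at *Mef2c*, 1720307 and 1720033 bp upstream. *Nkx2-5*, *Tbx5*, *Hand2* and *Isl1* lay between these values in both genotypes.

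For each gene the protein-coding gene on another chromosome with the most similar peak lengths was found, by Euclidean distance over the 8 lists of log10(1 + summed length at the TSS). The distance was smallest for *Mef2c*, whose nearest gene was *Ppp1r14c* at 0.02, and largest for *Tbx20*, nearest to *Sertad4* at 0.81. *Hand1* was nearest to *Ptch1* (0.49) and *Gata6* to *Ptprs* (0.62). The others had closer neighbours, *Cdx2* for *Gata4* (0.24), *Unc5d* for *Gata5* (0.17), *Fev* for *Nkx2-5* (0.15), *Foxc2* for *Tbx5* (0.21), *Gbx2* for *Hand2* (0.37) and *Cdkn2c* for *Isl1* (0.31).

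The combination of lists with and without a peak, over all 8, was shared with 778 other genes at *Gata4*, *Nkx2-5*, *Tbx5* and *Hand2*, or 3.48% of all genes. It was shared with 702 at *Gata5* and *Isl1* and with 2177 at *Mef2c*. At *Hand1* and *Tbx20* it was shared with 43 other genes (0.192%) and at *Gata6* with 19 (0.0850%).

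The cardiac genes were set beside lists of related genes. The blood transcription factors, 14 genes including *Tal1*, *Lmo2*, *Gata2* and *Fli1*, are the genes of the lineage that SCL specifies. H3K27ac was called at the TSS of 8 of them in WT and 1 in Delta, *Runx1*, whereas at the cardiac genes it was called at 0 and 3. The H3K27me3 rank was higher in Delta at 10 of the 11 blood genes with the mark in both genotypes, with a median difference of 19.7 points, against a median of -3.7 points for the cardiac genes. The H3K4me3 rank was lower in Delta at 11 of 11 blood genes and at 6 of 10 cardiac genes. Over all genes with the mark in both genotypes the median difference was -0.7 points for H3K27me3 and -1.6 points for H3K4me3. The quartiles were -8.9 and 5.8 points for H3K27me3 and -12.3 and 9.5 points for H3K4me3. The share of all genes in each direction was not counted. No test of the difference between the lists was made, and the lists were chosen with earlier results of these data known. *Tal1* is *Scl* itself, the locus engineered in both lines and used for the sort.

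Among 23 other cardiac regulators, H3K27me3 was called at 20 in each genotype and at 19 in both, and H2AK119ub at 13 in WT and 11 in Delta. H3K27ac was called at 5 in each genotype, in Delta alone at *Hey1*, a target of Notch signalling, and in WT alone at *Foxh1*, a partner of SMAD proteins. Among 15 cardiac signals and receptors, H3K27me3 was called at 13 in each genotype and H3K27ac at 2 in each, at *Bmpr1a* in both, in Delta alone at *Notch1* and in WT alone at *Bmp2*. Of 22 genes for contractile and other cardiomyocyte proteins, 8 had H3K27me3 in each genotype, close to the share of all genes, and H3K4me3 was called at 8 in WT and 7 in Delta.

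**Figure D5:**
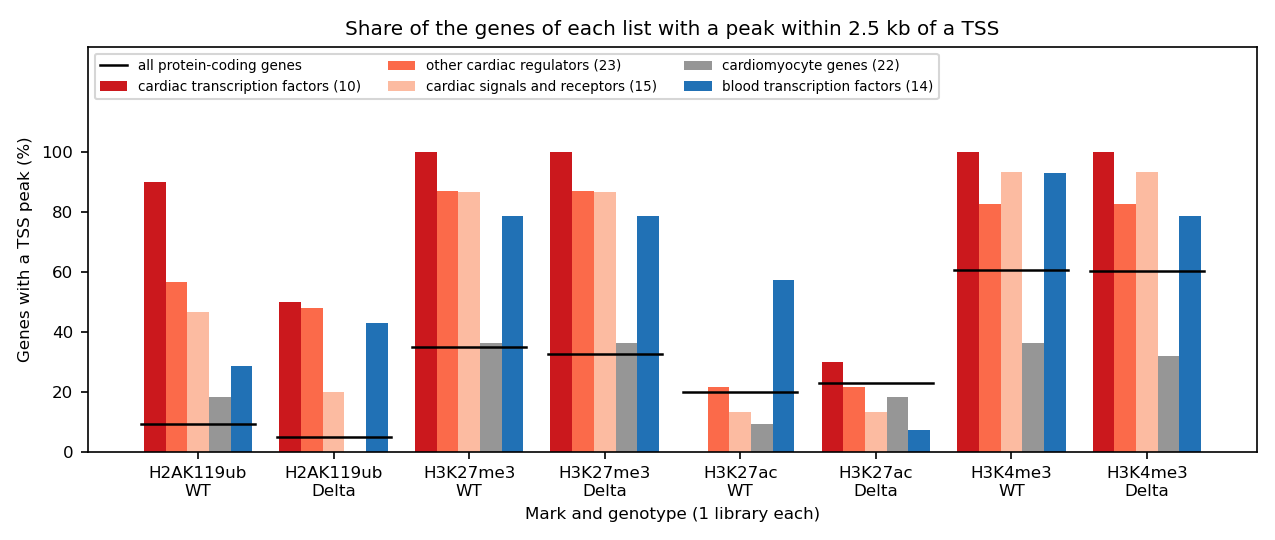
Percentage of the genes of each list with a peak within 2.5 kb of a TSS, for each mark and genotype, with the number of genes in the legend and black lines for all protein-coding genes. The cardiac transcription factors (dark red) reach 100% for H3K27me3 and H3K4me3 and go from 0 to 3 of 10 for H3K27ac, while the blood transcription factors (blue) go from 8 to 1 of 14.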

How the data were processed

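ChIP-Rx libraries of 4 marks from WT and Delta cells were analysed as deposited, as 8 peak lists. The 2 inputs were not analysed here. According to the study's methods and the submitters' processing notes, reads were aligned to mm9 and dm3 with Bowtie, duplicates were removed, and broad peaks were called with MACS2 2.0.10 in each library against its input. Libraries were not pooled, and peak calls carry no spike-in scaling. The deposited columns are a score, the fold enrichment (a ratio), and the −log10 of the p-value and of the q-value, all made by the authors. The score, 10 times the −log10 q to within 1 for each of the 70826 peaks, was not used. Read depth per sample is not given by the lists, and the read totals in the study's supplement were not used.

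Genes and TSSs are from GENCODE M1, on the same build (NCBIM37), with 22359 protein-coding genes. A peak was at a TSS if at least 1 bp lay within 2500 bp of it, and the lengths of all such peaks were summed over their whole extent. The genes named are the 10 cardiac genes, the nearest gene to each by peak lengths, and genes of fixed lists. The members and the lists were chosen with earlier results of these data known. *Spi1* was matched through its older symbol. Alternatives were a TSS distance of 1000 bp, limits of 3 on the −log10 q and on the fold enrichment, equal numbers of top peaks by −log10 p, the outermost TSS alone, joining of peaks up to 3000 bp apart, at least 500 bp in the window, bases within the window alone and a length ratio of at least 2. No test was possible with 1 library per mark and genotype. The overlap code was tested on simulated data, and the genes with a TSS peak differed from those of bedtools 2.31.1 by 0 genes in 8 lists. Analyses used Python 3.11.15, pandas 2.3.3 and numpy 2.4.6.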

Additional observations from a re-analysis of the deposited data

How the results depend on the processing

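No paired analysis was possible because each mark had 1 library per genotype. Of 170 values counted over the 10 genes under the alternatives, 149 stayed within 1.5 times the main count and 21 did not. With a −log10 q of at least 3, 0 genes had H2AK119ub in WT and 0 in Delta, so it was longer at 0 in either direction, H3K27ac was called at 1 gene in Delta (also longer at 1 in Delta, and present in Delta alone at 1), and H3K4me3 was longer in Delta at 2. With equal numbers of top peaks, H2AK119ub was present at 5 genes in WT, longer there at 3 and longer in Delta at 2. At a TSS distance of 1000 bp, H2AK119ub was called at 5 genes in WT, longer in WT at 4 and in Delta at 2, and H3K27me3 was longer in WT at 2. With the outermost TSS alone H3K4me3 was longer in Delta at 2, and with a length ratio of at least 2 at 0, while it was longer in WT at 1 and H2AK119ub was longer in Delta at 0. Bases within the window alone left H2AK119ub longer in Delta at 0. Joining peaks closed the gap over the TSS at *Hand1* and *Tbx20*, so 0 genes left H3K27me3 in Delta. These counts thus rest on the limits chosen, and why they changed was not tested.

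Of 280 length differences of single genes, 249 kept their call, or its absence, by the rule of 1.5 times, 27 lost or gained one and 4 with a call changed sign. In addition, 5 that had no call before the alternative changed sign, among them *Hand2*, which is also among the 27. Joining peaks gave 8590 bp for H2AK119ub at *Gata4*, -1587 bp at *Tbx5* and 283 bp for H3K4me3 at *Nkx2-5*, and equal numbers of top peaks gave 213 bp for H2AK119ub at *Gata6*, all as Delta minus WT. Those 5 were H3K27me3 at *Isl1* (335 bp) and *Mef2c* (-132 bp) and H3K4me3 at *Tbx20* (-2999 bp) with peaks joined, H3K4me3 at *Tbx20* (-243 bp) with bases within the window alone, and H2AK119ub at *Hand2* (655 bp) at a TSS distance of 1000 bp. Joining also exchanged the gene behind 2 unchanged counts of 1, *Gata5* for *Gata6* in H3K27me3 longer in WT and *Gata4* for *Tbx5* in H2AK119ub longer in Delta. The alternatives for the position of the TSS, the ranks and H3K27ac in Delta alone were chosen after seeing the data. Ranked by −log10 p, H3K4me3 was higher in Delta at 6 genes and lower at 4. The lists give no depth, and the read totals that the study states for each library were not used here.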

Other observations

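Some genes of the neighbouring lists had peaks in the 2 genotypes that differed as those of *Hand1*, *Tbx20* and *Gata6* did, or in the other direction. At *Tbx3*, a T-box factor of the conduction system, the summed H3K27ac length at the TSS was 321 bp (WT) and 2103 bp (Delta), and H3K4me3 measured 7293 and 9630 bp, while H3K27me3 measured 3823 and 2560 bp although its rank was 42.4 points higher in Delta. H2AK119ub at *Tbx3* measured 3468 bp in WT and was not listed in Delta. At *Mesp1*, a bHLH factor of early cardiac mesoderm, H3K27me3 measured 3856 bp (WT) and 2062 bp (Delta), and its rank difference, Delta minus WT, was -50.1 points. *Bmp4*, a growth factor of mesoderm, had 2757 and 1271 bp of H3K27me3, with no H3K27ac at the TSS in either genotype.

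Among the genes for cardiomyocyte proteins, H3K27ac was called in Delta alone at *Tnni1*, a slow troponin I, in a peak of 272 bp, and at *Tnnc1*, a troponin C, in one of 454 bp. At *Hcn4*, a pacemaker channel, H2AK119ub measured 2472 bp in WT and was not listed in Delta. At *Cbfa2t3*, which encodes the corepressor ETO2, H3K27me3 was 3477 bp (WT) and 10930 bp (Delta), the opposite order to that at *Gata6*. These genes were chosen from the lists after their values were seen.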
